A study of Mus musculus with 2 samples.

Results

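The LIM homeobox genes Lhx1, Lhx3, Lhx4, Lhx5, Lhx8, Lhx9, Isl1, Isl2, Lmx1a and Lmx1b were examined in chromatin of mature mouse cortex. These 10 of the 21938 protein-coding genes of the annotation were chosen by name. No measured value enters that rule, but earlier results of these data were known when it was set. For each gene, every accessible region, footprint and run of significant DNase cutting was taken from the gene body and 20 kb on each side. The data came from left cerebral cortex of 2 female B6CASTF1/J mice, first-generation offspring of B6 and CAST parents, at an age of 36 days. The animals are named replicate 1 and replicate 2 and gave a DNase-seq library each. They form a single group, and the design holds no comparison of conditions. The labels number the animals separately but enter them under a shared donor, and the spread between the libraries is all that the design can show.

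LIM homeodomain proteins join a DNA-binding homeodomain to a pair of LIM zinc fingers, which hold cofactors such as Ldb1. Different members acting together mark classes of neurons in the embryo: Isl1, Isl2, Lhx3 and Lhx4 in motor neurons, Lhx8 in cholinergic neurons of the basal forebrain, Lmx1a in midbrain dopaminergic neurons and Lmx1b in serotonergic and midbrain dopaminergic neurons. Lhx1 and Lhx5 act in early head and brain patterning, and Lhx9 in the diencephalon and the gonad. DNase I cuts DNA that is not wrapped in nucleosomes, and a footprint is a short stretch inside a cut region that is spared, as a bound protein would spare it.

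The sequences below carry the regions on which the results turn, as the reference (B6) sequence of GRCm38, the assembly also called mm10. Capitals mark bases that lay inside a footprint in both mice. The first 4 are the highest regions of the Lmx1b window by the mean height of the mice, and the fifth is the highest region of the Lmx1a window, all away from starts and all on the plus strand.
Lmx1b downstream, chr2:33547021-33547240: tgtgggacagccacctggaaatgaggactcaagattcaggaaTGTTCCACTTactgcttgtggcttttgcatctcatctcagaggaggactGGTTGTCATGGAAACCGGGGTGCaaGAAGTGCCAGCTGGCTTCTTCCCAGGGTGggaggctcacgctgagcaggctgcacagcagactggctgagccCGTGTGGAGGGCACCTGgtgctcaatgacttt
Lmx1b downstream, chr2:33558341-33558560: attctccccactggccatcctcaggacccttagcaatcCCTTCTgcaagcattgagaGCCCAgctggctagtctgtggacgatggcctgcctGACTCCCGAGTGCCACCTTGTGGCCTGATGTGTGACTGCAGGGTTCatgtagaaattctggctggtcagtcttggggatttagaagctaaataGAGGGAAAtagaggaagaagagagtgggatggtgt
Lmx1b downstream, chr2:33542821-33543000: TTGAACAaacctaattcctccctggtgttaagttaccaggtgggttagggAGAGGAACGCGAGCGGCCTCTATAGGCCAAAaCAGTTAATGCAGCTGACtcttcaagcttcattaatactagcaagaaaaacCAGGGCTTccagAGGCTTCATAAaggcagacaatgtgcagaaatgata
Lmx1b upstream, chr2:33643181-33643380: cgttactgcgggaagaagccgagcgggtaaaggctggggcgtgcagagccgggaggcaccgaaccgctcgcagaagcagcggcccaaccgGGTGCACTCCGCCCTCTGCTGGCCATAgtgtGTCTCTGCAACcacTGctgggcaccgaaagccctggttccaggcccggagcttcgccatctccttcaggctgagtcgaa
Lmx1a upstream, chr1:167669861-167670040: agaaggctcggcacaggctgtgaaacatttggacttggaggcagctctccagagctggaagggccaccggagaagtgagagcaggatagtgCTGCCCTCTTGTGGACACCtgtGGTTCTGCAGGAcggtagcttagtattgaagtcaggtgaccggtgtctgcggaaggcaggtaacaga

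Upstream promoter sequence is shown for 3 members that differ in their promoter calls, Lhx3 (called in both mice), Isl1 (called only in longer, less strict lists) and Lmx1b (not called in any list). It comes from RefSeq promoters on GRCm38.p6, all on the minus strand, cut off where the transcript begins. Capitals again mark footprints of both mice, and the sequences of Isl1 and Lmx1b hold none.
Lhx3, chr2:26208290-26208499: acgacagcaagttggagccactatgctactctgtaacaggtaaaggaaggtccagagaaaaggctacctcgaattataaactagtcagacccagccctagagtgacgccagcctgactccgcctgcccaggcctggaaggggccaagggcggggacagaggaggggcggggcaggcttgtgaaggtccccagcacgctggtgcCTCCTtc
Isl1, chr13:116309690-116309938: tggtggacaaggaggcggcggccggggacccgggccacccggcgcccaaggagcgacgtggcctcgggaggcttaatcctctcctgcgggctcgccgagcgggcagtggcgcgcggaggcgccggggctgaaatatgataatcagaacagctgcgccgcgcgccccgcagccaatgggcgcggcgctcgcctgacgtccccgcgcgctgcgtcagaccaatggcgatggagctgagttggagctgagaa
Lmx1b, chr2:33641099-33641348: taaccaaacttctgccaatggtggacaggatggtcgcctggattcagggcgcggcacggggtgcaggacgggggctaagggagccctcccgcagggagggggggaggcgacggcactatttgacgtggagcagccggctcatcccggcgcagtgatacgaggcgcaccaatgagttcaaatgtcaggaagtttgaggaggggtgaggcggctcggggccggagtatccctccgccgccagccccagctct

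Most of these genes lacked a promoter region called in both mice in the shorter, stricter lists. Each library has a shorter and a longer peak list from the authors. Peaks of the shorter lists in these windows all held a position with a false discovery rate (FDR) of the cut rate under 0.001. A promoter region was a peak, merged across the mice, within 1 kb of any annotated start of the gene. Lhx3, Lhx8 and Isl2 had one in both mice, 3 of 10 members, against 61.1% of all protein-coding genes. A start was called CpG-rich with at least 55% GC and an observed over expected CpG ratio of at least 0.6 in 500 bp on each side. All members but Lhx9 had such a start, and 3 of these 9 had a promoter region in both mice, against 93.3% of the 10093 protein-coding genes with a CpG-rich start. The cortex holds many cell types, and few accessible cells cannot be told apart from weak access in many.

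Mouse by mouse the calls differed. Replicate 1 had a promoter peak at 4 members, Lhx4 besides those 3, against 63.4% of protein-coding genes. Replicate 2 had one at 5 members, Lhx1 and Lhx9 besides those 3, against 62.3%. Lhx5, Isl1, Lmx1a and Lmx1b had none in either mouse. With the longer lists the count in both mice was 7 of 10, with Lhx1, Lhx4, Lhx5 and Isl1 added, against 65.5% of all protein-coding genes. All 7 had a CpG-rich start, 7 of 9 such members, against 96.3% of such genes. Lhx9, Lmx1a and Lmx1b stayed without a promoter region of both mice there.

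**Figure D1:**
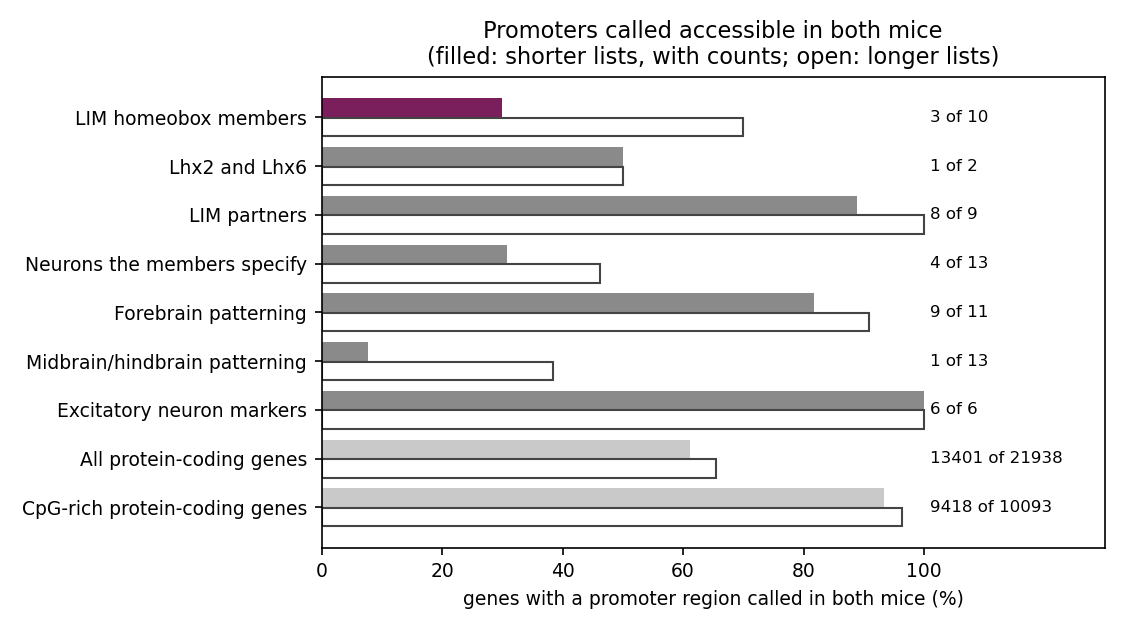
Percent of genes (x axis) with a promoter region called in both mice, for the LIM homeobox members, 6 comparison lists and all or CpG-rich protein-coding genes (y axis). Filled bars use the shorter lists, with their counts at the right, and open bars the longer lists. The members stand at 3 of 10 with the shorter lists and 7 of 10 with the longer ones.

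The 3 called promoters were low. Peak heights are the authors' own values, scaled per library by a factor that is not stated, so each height is read against its own list. The highest promoter peak of Lhx3 stood at 1.61 in replicate 1 and 0.712 in replicate 2, that of Lhx8 at 0.748 and 0.539, and that of Isl2 at 0.699 and 0.555. The Lhx3 values come from different regions in the mice. The median over all called CpG-rich promoters was 4.69 in replicate 1 and 3.31 in replicate 2, above all 3 members in both mice. Of those 9418 promoters, 9.24% in replicate 1 and 2.81% in replicate 2 were as low as Lhx3 or lower. The share was 0.934% and 0.977% for Lhx8, and 0.637% and 1.15% for Isl2.

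At Isl2, and in replicate 2 at Lhx8, low heights went with a large share of promoter bases at a lenient threshold. The FDR runs give, for each base within 1 kb of a start, whether its cut rate passed a threshold. Under an FDR of 0.05, Isl2 had 38.5% of its promoter bases in replicate 1 and 49.5% in replicate 2, and Lhx8 had 20.6% and 44.3%. The median CpG-rich gene had 26.1% and 26.5%, so Isl2 exceeded it in both mice and Lhx8 in replicate 2 only. Over the 10 members the median was 14.4% and 13.7%, against 14.7% and 14.9% over all protein-coding genes.

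A stricter threshold gave another picture for Isl2. Under an FDR of 0.001 it had 4.28% of its promoter bases in replicate 1 and 10.9% in replicate 2, below the median CpG-rich gene in both mice, and Lhx8 had 8.50% and 26.3%, above it in replicate 2. At that threshold the median member had 0.269% of promoter bases in replicate 1 and 2.41% in replicate 2, against 19.7% and 19.96% for CpG-rich genes. Lhx1, Lhx3, Lhx4, Lhx8 and Isl2 held at least 1 such base in both mice, 5 of the 9 members with a CpG-rich start, against 93.9% of such genes. Lhx5 and Isl1 had none in either mouse, although under 0.05 Lhx5 had 6.00% and 10.3% and Isl1 5.33% and 2.79%. Lmx1b had no base under 0.05 in either mouse, Lhx9 none in replicate 1 and Lmx1a none in replicate 2.

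**Figure D2:**
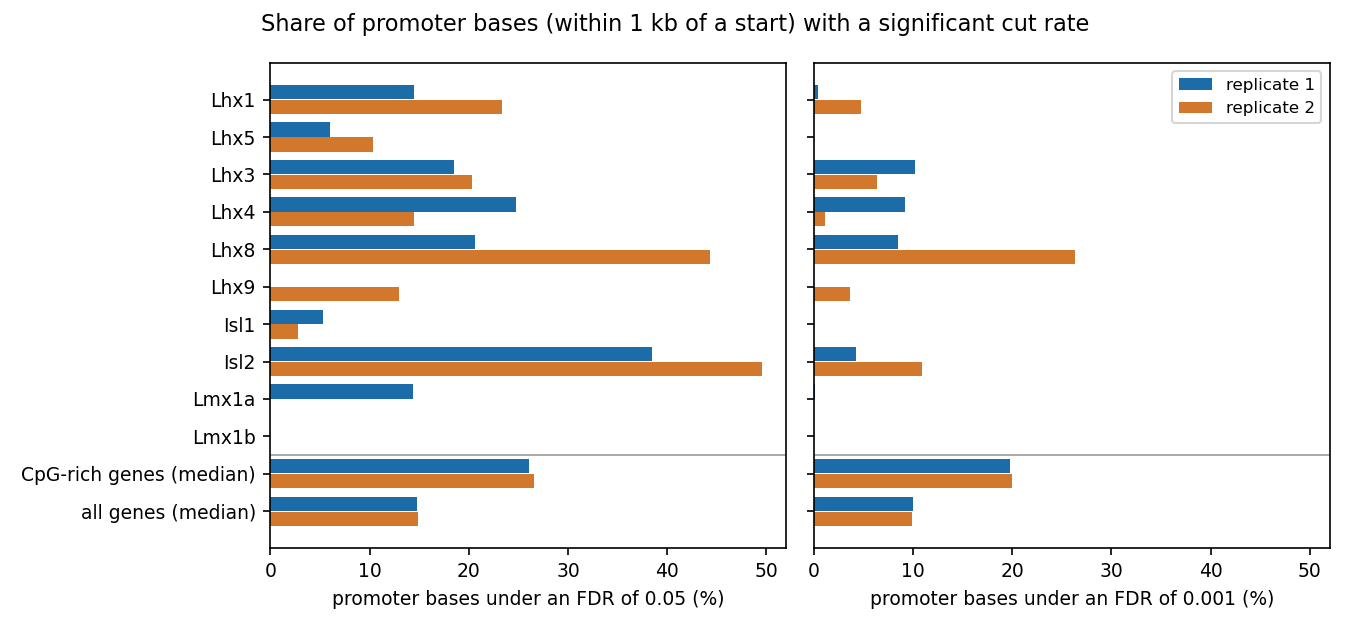
Percent of promoter bases (x axes) under an FDR of the cut rate of 0.05 (left) and 0.001 (right) for each member, with the medians of CpG-rich and of all protein-coding genes at the bottom. Blue bars are replicate 1 and orange bars replicate 2. Isl2 has the largest share under 0.05 among the members in both mice, and Lmx1b has none.

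RefSeq held 10 promoter sequences for 9 of the members, each running 250 bases before to 50 bases after a start. They were rich in CpG, with a median of 21 per promoter against 7 over all 32851 promoters. More than 20 CpGs were found in 5 of 10, against 24.8% of all. Motifs were searched on both strands. The GC box GGGCGG was in 5 of 10 (35.7% of all), CCAAT in 5 (37.4%), and TATAAA in 1, that of Lhx3 (13.6%). The homeodomain core TAATTA was in 0 of 10 and in 5.29% of all. The Isl1 promoter printed above belongs to the most CpG-rich of the 10, with 37 CpGs.

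Counted over whole windows, the members held 53 regions of the shorter lists, of which 26 were called in both mice, 9 in replicate 1 only and 18 in replicate 2 only. Of the 39 peaks of replicate 1 in these windows, 29 met a peak of the other mouse, which is 74.4% (95% Wilson interval 58.9 to 85.4%), against 74.6% of all its peaks. Of the 47 peaks of replicate 2, 28 did, which is 59.6% (45.3 to 72.4%), against 74.3%. These intervals cover counting error only and treat the peaks of 1 animal as independent draws. Of the 47 peaks of replicate 2, Isl2 and Lmx1b held 11 each and Lhx8 held 9. A departure from the share over all peaks can therefore not be read from the intervals. Of the 26 regions called in both mice, 25 held a footprint in both mice, against 92.9% of all 48886 regions of both mice. The exception was a 60-bp region in the 3′ UTR of Isl2.

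The regions lay mostly away from starts. Of the 26, 19 were over 1 kb from every annotated start, against 56.1% of all regions of both mice. Of the 19, Lmx1b held 8 and Isl2 held 4, while Lhx1, Lhx3, Lhx9 and Isl1 held 0. Another 4 of the 26 were at the members' own promoters, and 3 belonged to promoters of other genes. Those 3 were the region at Aatf in the Lhx1 window, at 2310009B15Rik in the Lhx9 window and at the antisense gene Gm17226 inside Isl2. Heights above the all-region median in both mice (1.59 in replicate 1 and 1.16 in replicate 2) were seen in 9 of the 26, against 43.1% of all regions. Those 9 were regions of the Lmx1b window, the Lhx5 3′ UTR region and the promoters of Aatf and 2310009B15Rik. Heights below that median in both mice were seen in 13, also against 43.1%.

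The density of regions called in both mice averaged 0.364 per 10 kb of window over the members, with a median of 0.207. Over all protein-coding genes the mean was 0.439 and the median 0.339. That order turned with the longer lists. There the members had a mean of 0.684 and a median of 0.614, against 0.625 and 0.505 over all protein-coding genes. Genes with a CpG-rich start had a mean of 0.558 and a median of 0.448 with the shorter lists. With the longer lists they had 0.784 and 0.654, so the members lay below such genes in both. Isl2 was the densest at 1.26, a value that 5.26% of protein-coding genes reached or exceeded, followed by Lmx1b at 0.669, which 23.1% reached or exceeded. Lhx8 stood at 0.466 and Lhx3 at 0.416. Lhx1, Lhx5, Lhx9, Lmx1a and Lhx4 lay between 0.107 and 0.212, and Isl1 had no region in both mice. The FDR runs gave a median member 2.90% of window bases under 0.05 in replicate 1 and 3.47% in replicate 2, against 2.69% and 2.83% for all protein-coding genes and 3.70% and 3.85% for those with a CpG-rich start. Since small genes have shorter windows, 1 region counts for more at Isl2 (47.5 kb) than at Lmx1b (119.5 kb) or Lmx1a (199.5 kb).

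**Figure D3:**
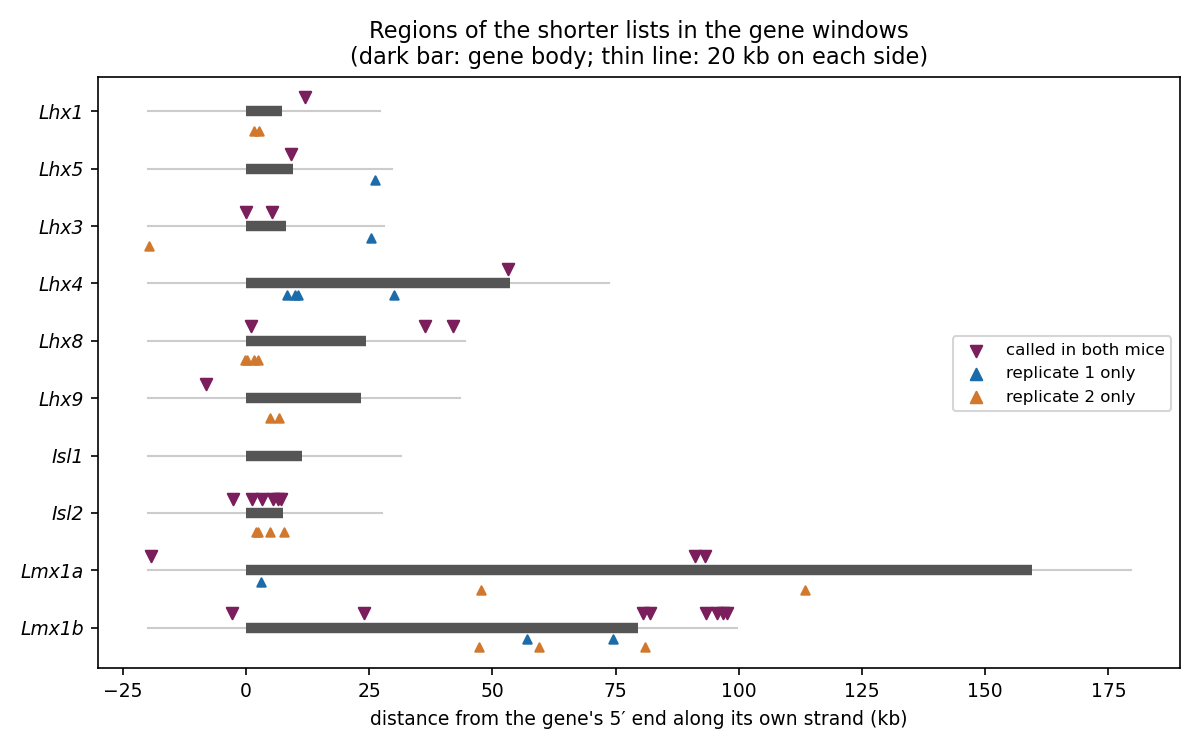
Position of each region of the shorter lists along the gene (x axis, kb from the 5′ end along the gene's own strand) for the 10 members (y axis). Purple marks above a gene are regions called in both mice, and blue and orange marks below it are regions of replicate 1 only and replicate 2 only. Regions crowd inside Isl2 and past the 3′ end of Lmx1b, and Isl1 has none.

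The Lmx1 pair differed in region count over the windows. In the gene body alone the order turned, with 1 region of both mice at Lmx1b and 2 at Lmx1a. Lmx1b and Lmx1a encode closely related factors, and neither had a promoter region in any list that both mice shared. The Lmx1b window held 8 regions called in both mice, and 6 of them lay past the 3′ end of the gene within 17.2 kb. The highest, printed first above, stood at 4.85 in replicate 1 and 3.41 in replicate 2, higher than 90.6% and 91.8% of the peaks of its list. The second, at chr2:33558341-33558560, stood at 4.70 and 1.53, and the region at chr2:33542821-33543000 at 3.83 and 1.67.

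The other 3 downstream regions were lower by the mean height of the mice, though not in replicate 2 for the first of them. The region at chr2:33543261-33544220, 960 bp wide, stood at 1.64 in replicate 1 and 2.02 in replicate 2, with 16 and 8 footprints. Those at chr2:33559861-33560060 and chr2:33544788-33544988 stood at 2.10 and 1.27, and at 1.17 and 0.769. All 6 were closer to starts of Gm13530 or Gm38011, 53039 to 57239 bp away, than to the starts of Lmx1b, 72223 to 89283 bp away, so assignment to Lmx1b rests on the window alone. Within the gene, the intron held a region of both mice at chr2:33616301-33616800 (1.99 and 1.06), which lies 1903 bp from a start of Gm38011.

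Upstream of Lmx1b, the region at chr2:33643181-33643380 stood at 3.02 in replicate 1 and 1.46 in replicate 2. It lies 2670 bp from the nearest GENCODE start of Lmx1b, inside the gene C130021I20Rik. The GENCODE promoter itself, with 70.5% GC at its most CpG-rich start, had no base under an FDR of 0.05 in either mouse. Of the 8 regions in this window, 7 stood above the all-region median in replicate 1 and 6 in replicate 2.

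Lmx1a had 3 regions in both mice over a window of 199.5 kb. The upstream region at chr1:167669861-167670040 stood at 2.76 in replicate 1, above 78.6% of its list, but at 0.757 in replicate 2, above 38.9%. The intronic regions at chr1:167780153-167780340 and chr1:167782205-167782420 stood at 1.02 and 0.5498, and at 1.09 and 0.482. They lie 91.0 and 93.1 kb into the gene and below the all-region median in both mice.

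The Isl genes, which act in motor neurons, were opposite extremes of density. Isl2 had 6 regions in both mice, 5 of them inside its 7509-bp gene body. The widest, at chr9:55543701-55544540, spanned 840 bp over coding exon sequence with heights of 1.17 in replicate 1 and 1.02 in replicate 2 and with 13 and 14 footprints. Next to it, chr9:55544761-55545440 spanned 680 bp (0.888 and 0.752). Every region of the Isl2 window lay below the all-region median in both mice, so the cluster was wide but low.

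The promoter region of Isl2, at chr9:55541681-55542020 in an intron, lies 316 bp from one of its 4 annotated starts and 793 bp from the start of Gm17226, with which it cannot be told apart. The upstream region at chr9:55536041-55536184 stood at 0.876 and 0.488. In the FDR runs, 12.4% of the bases of the Isl2 window passed 0.05 in replicate 1 and 13.1% in replicate 2, against 2.69% and 2.83% for the median protein-coding gene.

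Isl1 held no region of the shorter lists in either mouse, and 0.650% and 0.340% of its window bases passed an FDR of 0.05. In the longer lists its window had 1 region of both mice, at chr13:116309521-116309880 over the 5′ end of the gene. It stood at 1.01 in replicate 1 and 0.595 in replicate 2, above 65.7% and 51.4% of those lists. It overlaps the CpG-rich sequence printed above, and its footprints common to both mice lie outside the printed bases.

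The motor neuron and pituitary pair Lhx3 and Lhx4 differed in where access was found. Lhx3 had 2 promoter regions in both mice. The one over its 5′ end, chr2:26208181-26208380, stood at 1.61 in replicate 1, above 63.0% of its list, and at 0.645 in replicate 2, above 29.1%. It lies inside the antisense gene Gm27196, 1479 bp from that gene's start. The other, chr2:26202899-26203280, covers coding exon sequence beside an internal start and stood at 1.20 and 0.712, with 6 footprints in each mouse.

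Lhx4 had 1 region in both mice, in its 3′ UTR at chr1:155698421-155698620, with heights of 1.11 in replicate 1 and 1.23 in replicate 2. It had 4 regions in replicate 1 only and 0 in replicate 2 only. The highest of the 4, in an intron at chr1:155721561-155721760, stood at 2.46, above 75.7% of the peaks of replicate 1. In replicate 2 the lowest FDR in that interval was 0.0247, and no peak was called there in the shorter list. The longer lists called that region in both mice, at 2.46 and 0.707, the latter above 60.1% of its list. The Lhx4 promoter peaks of replicate 1 stood at 0.730 and 0.602, at an internal start. The longer lists had a promoter region in both mice, at chr1:155740741-155741620 (0.730 and 0.539).

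Lhx1 and Lhx5, close relatives that act in early head patterning, had no own promoter in both mice. The 1 region of both mice in the Lhx1 window was the promoter of Aatf, at chr11:84513521-84513760, with 6.86 in replicate 1 and 4.42 in replicate 2. It was the highest region in any of the windows in both mice. Lhx1 itself had 2 regions in replicate 2 only, one beside an internal start at chr11:84522726-84522940 (0.684). That place was called in both mice in the longer lists, with 0.863 and 0.684. Its 5′ end faces the lincRNA gene Lhx1os, and only replicate 2 had low regions there in the longer list.

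Lhx5 had its 1 region of both mice in the 3′ UTR, at chr5:120440821-120441000. It stood at 6.79 in replicate 1 and 2.73 in replicate 2, above 96.1% and 88.3% of the lists, with 5 and 4 footprints. In replicate 1 it was the highest region away from starts in the 10 windows. At the Lhx5 start, the longer lists had a region of both mice at chr5:120431754-120431966 with 0.918 and 0.757. It lies 55 bp from the Lhx5 start and covers a start of the antisense gene Gm27199. The promoters of these genes cannot be told apart there. A further region downstream was called in replicate 1 only in the shorter lists (1.35), and in both mice in the longer lists (1.35 and 0.740).

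Lhx8, a factor of basal forebrain cholinergic neurons, had 3 regions in both mice. The promoter region at chr3:154329221-154330040 was 820 bp wide, with 10 and 7 footprints and heights of 0.748 in replicate 1 and 0.539 in replicate 2. It lies 781 bp from the start of AI606473, with whose promoter it cannot be told apart. Downstream, the regions at chr3:154288421-154288811 and chr3:154294061-154294460 stood at 0.651 and 0.634, and at 0.553 and 0.791. All 3 were below the all-region median in both mice. Replicate 2 had another 4 regions around the starts, with heights of 0.342 to 0.449.

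Lhx9 was the one member without a CpG-rich start. Its most CpG-rich start had an observed over expected ratio of 0.585 and 50.4% GC. The 1 region of both mice in its window was the promoter of 2310009B15Rik, at chr1:138856521-138856900 (2.72 in replicate 1 and 2.17 in replicate 2). The gene itself had 2 regions in replicate 2 only, of 0.780 and 0.623. In replicate 1 no base within 1 kb of a start passed an FDR of 0.05, against 12.97% in replicate 2.

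**Figure D4:**
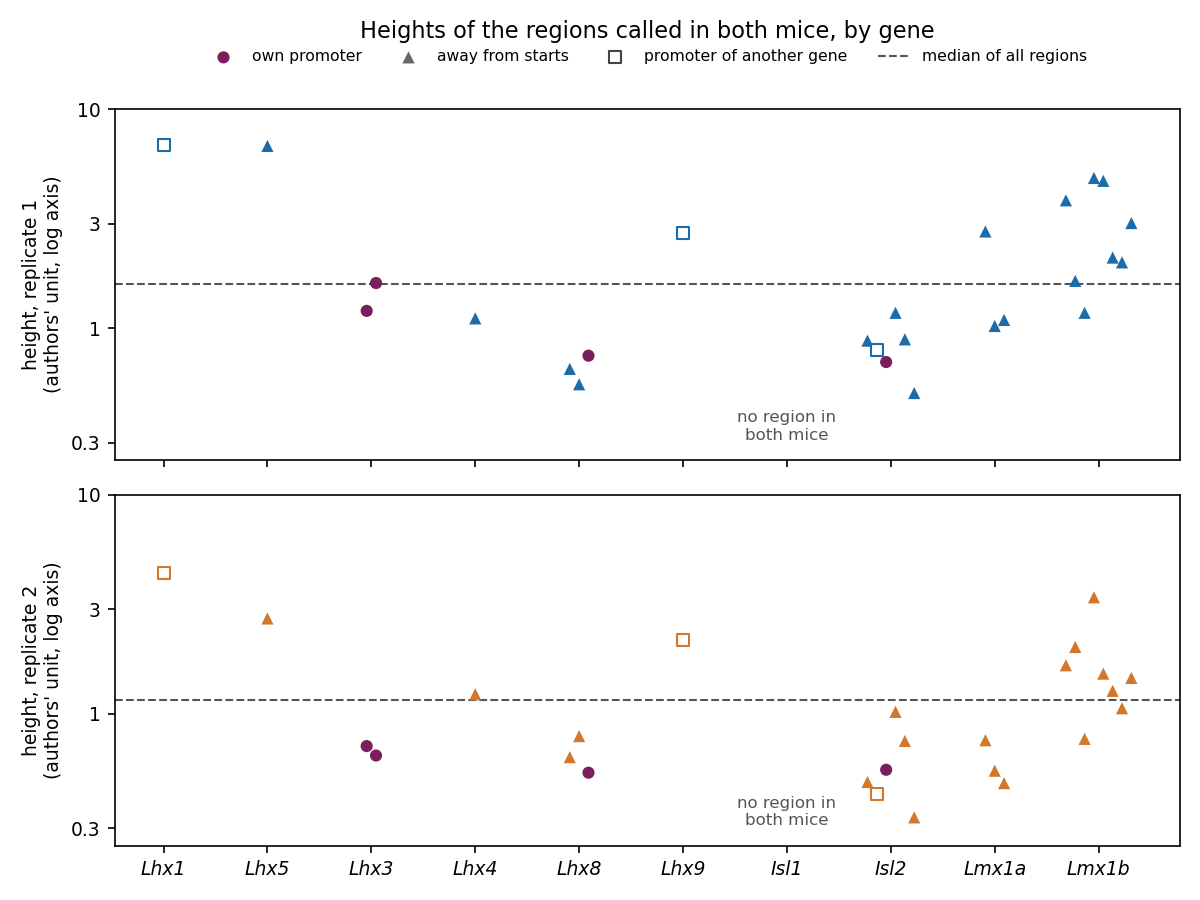
Peak height (y axes, the authors' unit on a log axis) of each region called in both mice, by member (x axis), in replicate 1 above and replicate 2 below. Circles are own promoters, triangles are regions away from starts, open squares are promoters of other genes, and the dashed line is the median of all regions of both mice (1.59 and 1.16). Own promoters reach at most 1.61 in replicate 1 and 0.712 in replicate 2, and the Lmx1b regions mostly lie above the line.

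CTCF, a zinc finger protein that organises chromatin loops, had its consensus matched exactly in 3 of the 26 regions, against 7.56% of all regions of both mice, in the 200 bp at the middle of each. The 3 sites lie on the minus strand in the Lhx5 3′ UTR, in the Lmx1a intron and upstream of Lmx1b. They are printed with 5 bases on each side, and capitals here mark the match.
Lhx5, chr5:120440911-120440923: ttgagCCACCAGGGGGCGccaac
Lmx1a, chr1:167782323-167782335: cctctCCACCAGGGGGCAgcata
Lmx1b, chr2:33643280-33643292: tatggCCAGCAGAGGGCGgagtg

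All 3 matches lay wholly inside footprints in both mice, as did 88.1% of the 3724 matches in all regions. With at most 1 mismatch, a setting chosen after the data were seen, 6 of the 26 regions held a match, against 20.2% of all. The added regions are the Lmx1a upstream region and the Lmx1b downstream regions at chr2:33558341-33558560 and chr2:33559861-33560060.

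The highest Lmx1b downstream region held an X-box, the site of RFX factors, at chr2:33547113-33547126. The X-box was searched after this sequence had been seen. It lay wholly inside footprints in both mice, and 0.458% of all regions held one. Of the other motifs, TAATTA was in 1 of the 26 regions (1.96% of all), the AP-1 site TGANTCA in 1 (7.94%), the NFI-type site TTGGCA in 1 (13.5%), the bHLH site CAGATG in 0 (17.9%) and the GC box in 7 (27.5%). A match shows that the letters are present in the B6 reference, and the CAST sequence was not searched. It does not identify the protein that was bound.

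Of the other LIM homeobox genes compared, Lhx2, which acts in cortical progenitors and is the paralog of Lhx9, had a promoter region in both mice (3.76 in replicate 1 and 2.74 in replicate 2), higher than any member's promoter. Lhx6, the interneuron factor paralogous to Lhx8, had none in both mice. Among 9 LIM partner genes, which encode Ldb cofactors, LIM-only proteins and Ssbp proteins, 8 had a promoter region in both mice. The share was 61.1% over all protein-coding genes and 93.3% over those with a CpG-rich start, which 7 of the 9 partners had. Ldb1, the main LIM-binding cofactor, stood at 2.85 and 2.57, the LIM-only gene Lmo4 at 5.28 and 4.15 and Ssbp2, whose protein binds Ldb1, at 9.44 and 5.43. The exception was Lmo3, called in replicate 1 only (1.18). The longer lists called it in both mice (1.18 and 1.04). There 9 of 9 partners had a promoter region in both mice, against 65.5% of all protein-coding genes.

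Of 13 genes of the neurons that the members help specify, 4 had a promoter region in both mice, again against 61.1% of all protein-coding genes. Among them were Nr4a2 (2.60 in replicate 1 and 1.95 in replicate 2), Pitx3 and Tph2. Chat, Slc18a3, Mnx1, Fev, Slc6a4, Th and Slc6a3 had none in either mouse in the shorter lists. Other patterning factors gave 1 of 13 for midbrain and hindbrain genes (Pax5), against the same 61.1%. Replicate 1 alone had 2 (63.4% of all protein-coding genes) and replicate 2 alone 4 (62.3%). The longer lists had 5 in both mice (65.5%). Forebrain genes gave 9 of 11 with the shorter lists, also against 61.1%, Emx1 among them (2.63 in replicate 1 and 1.73 in replicate 2). A CpG-rich start was present in 7 of the 13 neuron genes and 7 of the 11 forebrain genes. The midbrain and hindbrain genes had one in 10 of 13. Over all genes with such a start, the share called in both mice with the shorter lists was 93.3%.

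As a check of the tissue, promoter regions in both mice were present for 6 of 6 excitatory neuron markers, 2 of 3 astrocyte, 1 of 3 interneuron and 1 of 3 oligodendrocyte markers. The count was 0 of 3 for microglia, 0 of 4 for motor and cholinergic neurons, 1 of 3 each for serotonergic and midbrain dopaminergic neurons, and 0 of 3 each for liver and muscle. All these counts stand beside 61.1% of all protein-coding genes and 33.6% of those without a CpG-rich start. No microglia, midbrain dopaminergic, liver or muscle marker had a CpG-rich start. With microglia at the same count as liver and muscle, the counts cannot tell cell types of the cortex from those of other tissues. Replicate 1 had 69208 peaks in its shorter list and replicate 2 had 69128, and depth in reads is unknown. No read count stands behind a height, and a missing peak says that none was called, not that the site was closed.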

How the data were processed

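DNase-seq of left cerebral cortex was measured in 2 mice of 1 group. Per the deposited read-me text, peaks, footprints and FDR cut rates were made per library on mm10, and the sources used here name neither aligner nor caller. The deposited peak lists hold a height per peak, a signal value divided by a factor that is not stated. The deposited FDR of a run of positions is a q-value, listed only under 0.05. The score deposited with footprints is 0.01 throughout, and footprints were used by position alone.

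Coordinates are 1-based. The reference was GRCm38 with GENCODE M21, in which 27887 of 27907 start codons read ATG, and no chromosome had a peak past its end. Peaks of the mice that overlapped by at least 1 bp were merged, and a region belonged to a window if its midpoint lay there. Promoters were within 1 kb of an annotated start. The steps were run in Python 3.11.15 with pandas 2.3.3, numpy 2.4.6, pyfaidx 0.9.0.4 and matplotlib 3.10.9, and were tested on simulated data. With 2 libraries of 1 group no test between conditions was possible. Values are given beside the same quantity over all genes or regions, except under most of the alternative settings. All 10 members are named, with the highest regions of each window and its promoter regions. Neighbouring genes are named where their starts lie near, and other genes come from the comparison lists. Some genes of those lists are not reported here by name. Some low regions are also named, chosen after their values were seen. The members, lists and motifs were chosen with earlier results of these data known. Alternatives were the longer lists, a height minimum, a reciprocal overlap, other windows, a stricter FDR and each mouse alone.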

Additional observations from a re-analysis of the deposited data

How the results depend on the processing

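With the longer lists, 7 members had a promoter region in both mice. In the windows lay 49 regions at a mean density of 0.684 per 10 kb, and 47 held footprints in both mice. That density was 0.625 over all protein-coding genes, so that the members lay above them, not below. Over genes with a CpG-rich start it was 0.784, and the members stayed below it. With peaks restricted to those higher than their list's median, the promoter count was 0. There were 10 regions at a density of 0.116, and 10 held footprints in both mice. From a single mouse, leaving out each replicate in turn, the promoter count was 4 to 5, the regions 38 to 45 and the density 0.527 to 0.656. The share of member peaks that met a peak of the other mouse averaged 67.0% over the mice. It was 74.3% with the longer lists, 69.7% with the height minimum, 70.4% with flanks of 50 kb and 59.8% in the gene body alone. With a reciprocal overlap of at least 50% it was 54.0%, and the promoter count was 2. The share over all peaks is known here only for an overlap of 1 bp in the shorter lists. In the gene body alone there were 13 regions, 12 with footprints, at a density of 1.10, and 4.21% of bases passed an FDR of 0.05, against 3.36% in the windows. With flanks of 50 kb the density was 0.256 and 2.42% of bases passed. Without regions near starts of other genes the density was 0.270. Under an FDR of 0.01 and 0.001, 2.41% and 1.61% of window bases passed. Promoter windows of 500 bp and 2 kb left the promoter count at 3. Beyond the longer lists and the promoter counts of single mice, no value over all genes is given beside these settings. Their values show how the member counts move, not how the members compare with other genes. No paired analysis was possible because the libraries form 1 group. The promoter count therefore moves with the strictness of the list, and the cause was not tested. Read depth is unknown, so low regions called in 1 mouse only cannot be weighed by depth.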
